A study of Mus musculus with 20 samples.

Results

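T and NK cell genes are a group of 35 genes, out of 49585 gene IDs counted in this series, that mark T lymphocytes and natural killer (NK) cells: lineage genes, killing genes and checkpoint receptors. They were chosen by name, each count ID being matched to its mouse symbol, and all 35 were found. They fall into 9 genes of the T cell receptor complex and its kinases, 7 co-receptors and adhesion or costimulation genes, 6 checkpoint and regulatory T cell genes, 6 killing and cytokine genes, 5 NK receptors and 2 transcription factors.

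The series holds bulk RNA sequencing of 18 primary mouse osteosarcomas, malignant tumours of bone, and of 1 osteosarcoma cell line in 2 libraries. All tumour mice were of mixed C57BL/6J and 129S/SvJae strain. The tumours came from 4 genotypes: p53+/- (n = 4, here p53 het), p53R172H/+ (n = 6), p53R245W/+ (n = 3) and p53R270H/+ (n = 5), the mutants carrying a missense p53 allele beside a wild-type one. Every tumour group therefore started from 1 wild-type allele, and the labels do not say which tumours kept it, nor the sex and age of the mice, the site of the tumour or the sequencing batch. The comparisons address whether the missense mutants differ from loss of an allele and from each other. Cell line 14 is labelled p53R245/O. Its control library is labelled as a heterozygous mutant that lost the other allele, and its other library as treated with an siRNA against p53. It is 1 line with 1 library per condition. The RNA of that target, Trp53, was at 94.9 CPM in the control and 30.6 CPM in the siRNA library.

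T cells recognise antigen through a receptor whose alpha and beta chains signal through the CD3 chains and the kinases LCK and ZAP70, with CD4 or CD8 as co-receptor. Killer T cells and NK cells destroy target cells with perforin and granzymes. Checkpoint receptors such as PD-1, CTLA-4, LAG-3 and TIM-3 restrain these cells, and FOXP3 directs regulatory T cells. Osteosarcomas often hold few T cells and many macrophages.

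Tumour libraries held 20.1 to 29.2 M (megacounts) and the line's libraries 64.1 and 73.4 M. Levels are given in CPM, a gene's counts for every M counted in its library. Where a gene has no count, up to 3 counts cannot be told from 0, and 3 counts are worth 0.103 to 0.149 CPM in a tumour library. Sample titles were parted here into 2 kinds: 11 have a serial number (p53 het 1 and 2, R172H, R245W) and 7 have none (p53 het 3 and 4, R270H). The R270H titles also share a code in place of the genotype that all other tumour titles name, so no p53 het title has their form. R245W 2 stood apart: it had the lowest value, alone or tied, for 22 members, and 20 of the 35 were at or under 3 counts there. In the R245W comparisons the median of the members is given with and without it. Calls by DESeq2, an alternative test, were not refitted without it, and the correlations leave it out only together with other tumours. The 8 osteoblast genes looked at as a check of the tissue summed to 12854 to 79006 CPM in the tumours. Macrophage genes (12 genes) summed to 1307 to 3156 CPM, against 29.1 to 166 CPM for the 35 members.

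The start regions of the CD3 genes and of Gzmb with its neighbour Gzmc are shown here because the CD3 chains mark the T cell lineage and the granzyme pair spanned the widest range in CPM of any member. Each is the 250 bases before the gene's start in RefSeq (GRCm38.p6), 5′ to 3′ on the gene's strand. Capitals mark matches on either strand to TGTGGT (RUNX), AGGAAG (ETS), CAGGTG (E-box), TGANTCA (AP-1) and TGACGTCA (CRE). No match overlaps another in these 5 windows.
Cd3d (chr9:44981536-44981785, plus strand): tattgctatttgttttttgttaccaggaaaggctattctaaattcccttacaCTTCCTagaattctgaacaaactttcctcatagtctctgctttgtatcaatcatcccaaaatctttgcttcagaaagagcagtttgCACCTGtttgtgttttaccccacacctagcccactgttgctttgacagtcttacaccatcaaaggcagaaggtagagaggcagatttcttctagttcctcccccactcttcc
Cd3e (chr9:45009612-45009861, minus strand): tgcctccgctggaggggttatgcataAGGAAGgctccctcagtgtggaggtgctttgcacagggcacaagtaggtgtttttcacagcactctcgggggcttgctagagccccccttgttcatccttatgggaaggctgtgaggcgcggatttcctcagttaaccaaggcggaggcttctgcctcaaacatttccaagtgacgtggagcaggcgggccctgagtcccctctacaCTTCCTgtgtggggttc
Cd3g (chr9:44980432-44980681, minus strand): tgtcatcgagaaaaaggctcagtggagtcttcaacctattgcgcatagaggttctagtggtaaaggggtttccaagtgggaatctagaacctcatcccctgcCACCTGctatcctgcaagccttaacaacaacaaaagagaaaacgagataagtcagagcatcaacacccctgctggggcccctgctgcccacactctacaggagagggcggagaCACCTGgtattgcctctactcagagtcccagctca
Gzmb (chr14:56262335-56262584, minus strand): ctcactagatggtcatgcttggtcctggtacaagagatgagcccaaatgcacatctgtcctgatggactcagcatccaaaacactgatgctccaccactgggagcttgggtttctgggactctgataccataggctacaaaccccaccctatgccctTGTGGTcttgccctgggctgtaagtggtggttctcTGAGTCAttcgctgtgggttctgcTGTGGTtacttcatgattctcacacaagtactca
Gzmc (chr14:56234658-56234907, minus strand): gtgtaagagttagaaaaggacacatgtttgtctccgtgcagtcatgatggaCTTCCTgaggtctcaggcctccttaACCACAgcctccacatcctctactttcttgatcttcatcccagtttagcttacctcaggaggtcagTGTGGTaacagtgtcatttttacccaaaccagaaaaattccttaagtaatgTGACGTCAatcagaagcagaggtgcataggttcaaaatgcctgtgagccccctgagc

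Cd3d and Cd3g start 1355 bases apart and point away from each other, and Gzmb and Gzmc start 27677 bases apart on the same strand. The Gzmb and Gzmc windows each held TGTGGT 2 times, while none of the CD3 windows held it. An AGGAAG match lay in the Cd3d window (1) and the Cd3e window (2), and CAGGTG lay in the Cd3d (1) and Cd3g (2) windows. Of the 35 members 24 had an entry in the promoter table. TGTGGT lay before 11 of these 24 genes and in 14.0% of all 32851 windows. A gene counts if any of its windows matched, while the share of all windows counts each window singly. AGGAAG lay in 14 of 24 (29.5% of all), CAGGTG in 11 of 24 (17.2%), TGANTCA in 2 of 24 (6.75%) and TGACGTCA in 1 of 24 (1.55%). A match describes the letters only, and no binding was measured.

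Most members were at low levels. Over the 18 tumours 17 had a median under 1 CPM, 15 a median from 1 to 5 CPM, and 3 a median of 5 CPM or more: Cd4, Cd28 and Havcr2. Of the 630 values (35 members in 18 tumours) 69, or 11%, were at or under 3 counts. Between genes levels can be compared only per length. By mean CPM per kb of exon, Havcr2 (4.57) and Cd4 (4.43) led, then Gzmb (3.93), Cd28 (3.57), Trac (3.03) and Lag3 (2.47). The place of Gzmb rests on R172H 4, without which its mean was 1.0 CPM per kb. Cd3e stood at 0.203 and Ifng at 0.0628. In bulk samples fewer cells of a type and less RNA per cell cannot be told apart.

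**Figure D1:**
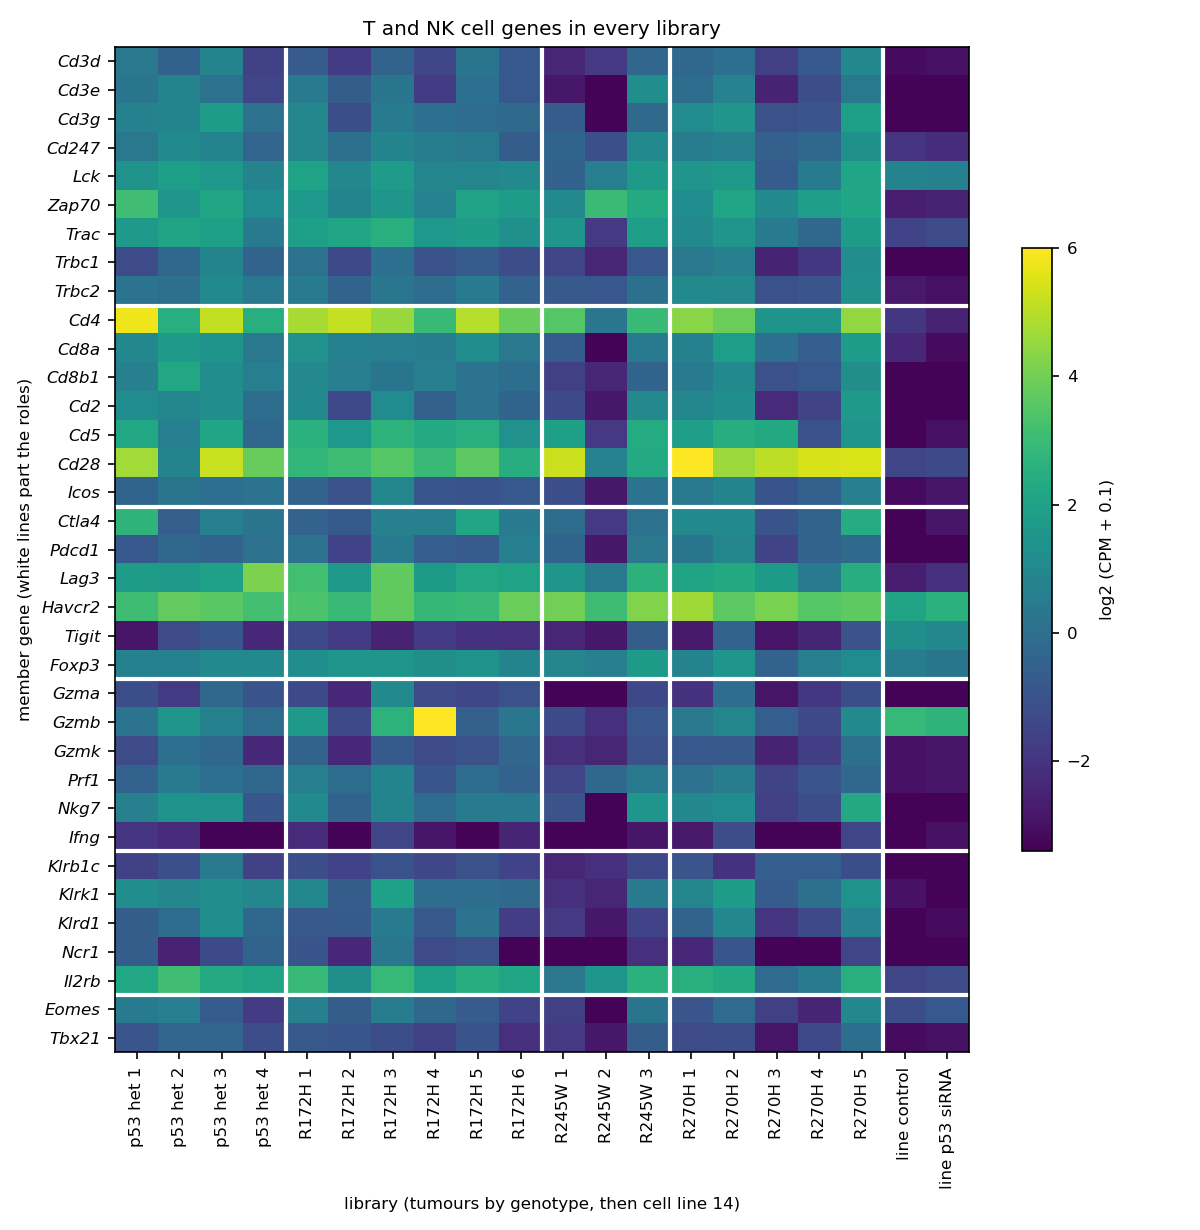
Levels of the 35 members (rows, by role) in the 18 tumours and the 2 cell line libraries (columns), as log2 of CPM plus 0.1. R245W 2 is dark in most rows, Cd4, Cd28 and Havcr2 form the bright rows, Gzmb is brightest in R172H 4 at 77.2 CPM, and Gzmb, Tigit and Havcr2 are bright in the line.

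The T cell receptor complex was read in nearly all tumours at low levels. Its 9 genes, kinases included, summed to 5.57 CPM in R270H 3, 7.44 CPM in R245W 1 and 8.18 CPM in R270H 4, the 3 lowest, and to 25.7 CPM in R270H 5, the highest. The sum of R245W 2 was 10.6 CPM, but 7.88 CPM of it was the kinase Zap70, and Cd3e and Cd3g had no count there. Cd3e (ENSMUSG00000032093.7, chr9:44998740-45009627), a CD3 signalling chain, was at 1.1, 1.69, 1.01 and 0.274 CPM in p53 het tumours 1 to 4, from 0.20 to 1.25 CPM (median 0.738) in the 6 R172H tumours, 0.0446, 0 and 2.21 CPM in R245W tumours 1 to 3 and 0.851, 1.6, 0.0747, 0.345 and 1.21 CPM in R270H tumours 1 to 5. R245W 3 had the highest value of all tumours and the other two R245W tumours the lowest, at 1 and 0 counts, so the groups overlapped. Over the 4 genotypes the test for any difference gave Cd3e an adjusted p of 0.937 (edgeR's quasi-likelihood test, Benjamini-Hochberg over all genes).

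The other chains showed a like spread. Cd3g, also a CD3 chain, was at 1.58, 1.69, 3.25 and 0.993 CPM in p53 het tumours 1 to 4, from 0.348 to 1.77 CPM (median 0.877) in the 6 R172H tumours, 0.535, 0 and 0.793 CPM in R245W tumours 1 to 3 and 2.08, 2.71, 0.374, 0.431 and 3.63 CPM in R270H tumours 1 to 5. R270H 5 and p53 het 3 were highest, and R245W 2 had no count. Cd3d ranged from 0.0891 to 1.88 CPM, Cd247 (the zeta chain) from 0.364 to 2.37 CPM, Trac (the constant region of the alpha chain) from 0.182 to 5.63 CPM, Trbc1 from 0.0747 to 2.24 CPM and Trbc2 from 0.374 to 2.37 CPM (the beta chain's constant regions). Trbc1 and Trbc2 are near-identical copies: 283 of 688 windows of 50 bases of Trbc1 (41.1%) also occur in Trbc2, so reads could be split between them. For Cd247, 60.3% of exon bases lie in exons of other genes, chiefly Pou2f1 on the opposite strand, which was at 23.5 to 54.4 CPM. The strand setting of the counts is not given, so Cd247 values may hold Pou2f1 reads.

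The kinases did not mirror the chains in every tumour. Zap70, which binds the phosphorylated chains, was at 8.56, 2.72, 4.21 and 2.16 CPM in p53 het tumours 1 to 4, from 1.6 to 3.95 CPM (median 2.93) in the 6 R172H tumours, 1.96, 7.88 and 5.05 CPM in R245W tumours 1 to 3 and 2.13, 4.31, 2.02, 3.53 and 4.34 CPM in R270H tumours 1 to 5. Its value in R245W 2 (7.88 CPM) was the second highest of all tumours, although most other members were lowest there. Lck, the kinase bound to CD4 and CD8, ranged from 0.523 to 4.3 CPM and was lowest in R270H 3.

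Cd8b1 and Cd8a encode the co-receptor of killer T cells, and both were low in R245W tumours. Cd8b1 (ENSMUSG00000053044.8, chr6:71322788-71337494) was at 1.54, 4.45, 2.19 and 1.44 CPM in p53 het tumours 1 to 4, from 0.885 to 1.95 CPM (median 1.26) in the 6 R172H tumours, 0.223, 0.0911 and 0.668 CPM in R245W tumours 1 to 3 and 1.28, 2.03, 0.374, 0.474 and 2.28 CPM in R270H tumours 1 to 5. All 3 R245W values (5, 2 and 16 counts) were below every p53 het and every R172H value. The R270H values overlapped each of the other genotypes. Cd8a was at 1.89, 3.09, 2.63 and 1.2 CPM in p53 het tumours 1 to 4, from 1.18 to 2.43 CPM (median 1.49) in the 6 R172H tumours, 0.535, 0 and 1.34 CPM in R245W tumours 1 to 3 and 1.56, 3.49, 0.934, 0.56 and 3.27 CPM in R270H tumours 1 to 5. R245W 2 had no count of Cd8a, and R245W 3 overlapped the other genotypes.

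Cd4, the co-receptor of helper T cells, varied widely within each genotype. By mean CPM per kb of exon Cd4 stood at 4.43, against 0.203 for Cd3e, and which cells made it was not tested. It was at 53.6, 5.74, 34.7 and 5.68 CPM in p53 het tumours 1 to 4, from 7.54 to 36.4 CPM (median 25.2) in the 6 R172H tumours, 11.4, 1.14 and 7.64 CPM in R245W tumours 1 to 3 and 19.8, 14.9, 2.65, 2.54 and 22.4 CPM in R270H tumours 1 to 5. The p53 het tumours divided into a high pair (1 and 3) and a low pair (2 and 4), and R245W 2 was lowest of all.

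Cd28 encodes the costimulatory receptor that T cells need for full activation, and is also found on plasma cells. Cd28 (ENSMUSG00000026012.2, chr1:60716800-60773359) was at 25.7, 1.69, 36.9 and 13.9 CPM in p53 het tumours 1 to 4, from 5.35 to 12.2 CPM (median 8.01) in the 6 R172H tumours, 38, 1.59 and 5.01 CPM in R245W tumours 1 to 3 and 73.6, 23.9, 33.5, 43.2 and 44.3 CPM in R270H tumours 1 to 5. All 5 R270H tumours lay above all 6 R172H tumours, while p53 het and R245W tumours spread from the bottom of the range to values among those of R270H. Means were 19.5 ± 15.1 CPM (SD, n = 4) in p53 het, 8.67 ± 2.62 CPM (SD, n = 6) in R172H, 14.9 ± 20.1 CPM (SD, n = 3) in R245W and 43.7 ± 18.7 CPM (SD, n = 5) in R270H tumours. Cd28 was high in tumours with hardly any Cd3e: R270H 3 had 33.5 CPM of Cd28 and 2 counts of Cd3e, and R245W 1 had 38.0 CPM of Cd28 and 1 count of Cd3e. Its neighbours on chromosome 1, the checkpoint gene Ctla4 and the costimulatory gene Icos, overlapped between R270H and R172H tumours. Icos ranged from 0.0455 to 1.78 CPM.

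Cd2 (an adhesion receptor) ranged from 0.0455 to 3.14 CPM and was lowest in R245W 2. Cd5, a receptor that tunes T cell receptor signals and is also found on some B cells, ranged from 0.182 to 6.32 CPM. It was at 4.82 CPM in R270H 3, where Cd3e had 2 counts, and at 0.182 CPM in R245W 2.

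**Figure D2:**
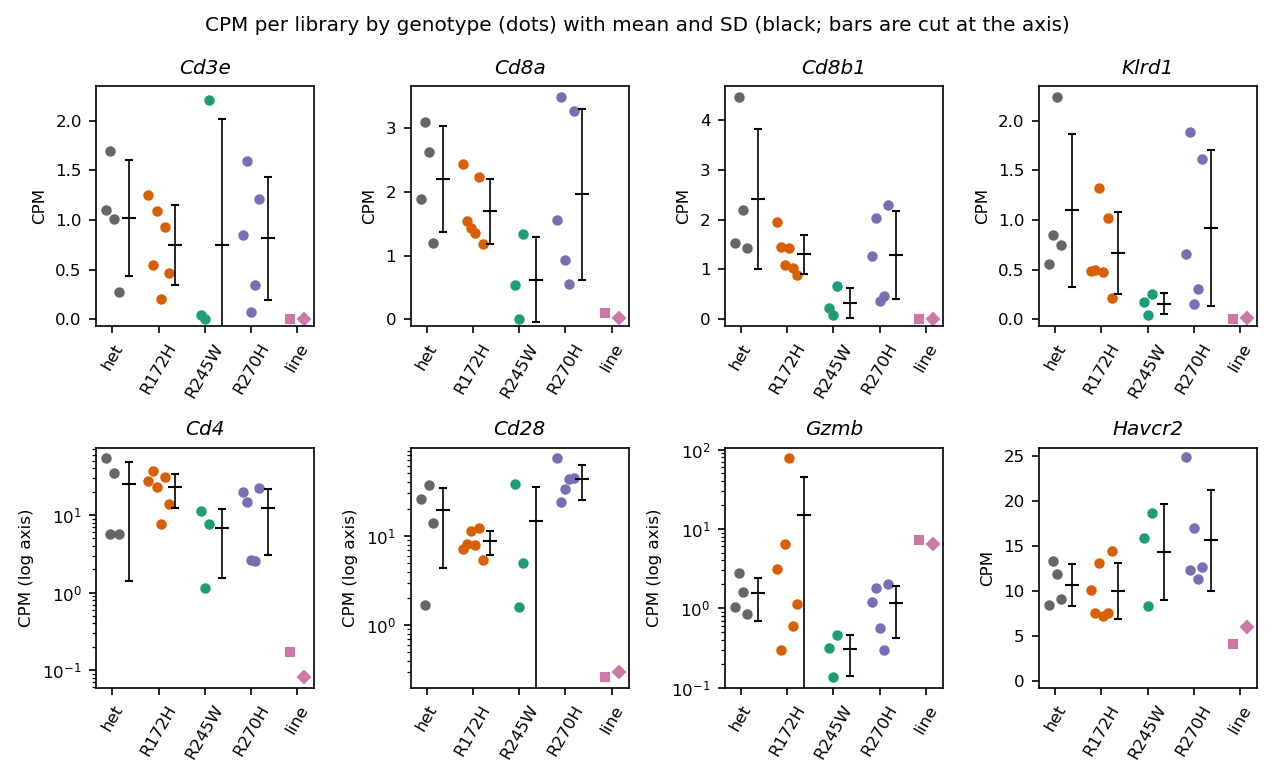
CPM of 8 members in each library, by genotype, with the mean and SD in black (bars cut at the axis; Cd4, Cd28 and Gzmb on a log axis); the square and diamond are the control and p53 siRNA libraries of the line. Cd8b1 and Klrd1 are low in all 3 R245W tumours, Cd28 in R270H (23.9 to 73.6 CPM) is above R172H (5.35 to 12.2 CPM), and 1 R172H tumour has 77.2 CPM of Gzmb.

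Of the checkpoint genes Havcr2 (4.57) and Lag3 (2.47) had the highest mean CPM per kb of exon and Pdcd1 (0.415) and Tigit (0.233) the lowest. Havcr2 (TIM-3), which macrophages and dendritic cells also make, was at 8.44, 13.3, 11.9 and 9.11 CPM in p53 het tumours 1 to 4, from 7.18 to 14.5 CPM (median 8.82) in the 6 R172H tumours, 15.9, 8.33 and 18.7 CPM in R245W tumours 1 to 3 and 25, 12.3, 17, 11.4 and 12.7 CPM in R270H tumours 1 to 5. It was above 7 CPM in every tumour, R245W 2 included. Lag3, a receptor for MHC class II also made by plasmacytoid dendritic cells, was at 3.27, 3.02, 3.82 and 17.8 CPM in p53 het tumours 1 to 4, from 3.03 to 13.1 CPM (median 4.21) in the 6 R172H tumours, 2.9, 1.23 and 6.18 CPM in R245W tumours 1 to 3 and 4.16, 4.84, 3.21, 1.29 and 5.42 CPM in R270H tumours 1 to 5. The value of p53 het 4 stood far above the other 3 p53 het tumours, and Cd3e was lowest of its group there.

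Ctla4, a competitor of CD28 for its ligands, was at 6.51, 0.589, 1.49 and 1.06 CPM in p53 het tumours 1 to 4, from 0.497 to 4.37 CPM (median 1.41) in the 6 R172H tumours, 0.847, 0.182 and 1.0 CPM in R245W tumours 1 to 3 and 1.99, 1.99, 0.411, 0.646 and 5.24 CPM in R270H tumours 1 to 5. p53 het 1, R270H 5 and 1 R172H tumour exceeded 4 CPM, and the groups overlapped. Pdcd1 (PD-1) was at 0.473, 0.736, 0.658 and 0.993 CPM in p53 het tumours 1 to 4, from 0.248 to 1.48 CPM (median 0.766) in the 6 R172H tumours, 0.669, 0.0455 and 1.17 CPM in R245W tumours 1 to 3 and 1.09, 1.79, 0.262, 0.646 and 0.806 CPM in R270H tumours 1 to 5. All genotypes overlapped for Pdcd1, with R245W 2 lowest at 1 count. Tigit, a receptor for PVR family ligands, ranged from 0.0374 to 0.63 CPM in the tumours.

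Foxp3, the regulatory T cell factor, was at 1.58, 1.55, 1.97 and 2.05 CPM in p53 het tumours 1 to 4, from 1.69 to 2.91 CPM (median 2.43) in the 6 R172H tumours, 1.74, 1.5 and 3.17 CPM in R245W tumours 1 to 3 and 1.65, 2.81, 0.635, 1.42 and 2.15 CPM in R270H tumours 1 to 5. R245W 2 (1.5 CPM), where Cd3e had no count, was just below all p53 het and R172H values and inside the range of R270H, whose tumour 3 was lowest of all. Of its exon bases 31.5% lie in exons of other genes, among them Flicr on the same strand (0.299 to 1.4 CPM) and Ppp1r3f on the opposite strand (0.658 to 2.68 CPM), so Foxp3 values may hold reads of these.

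The killing genes were low apart from Gzmb in single tumours. Gzmb (granzyme B; ENSMUSG00000015437.4, chr14:56258838-56262260), which mouse mast cells also make, was at 1.03, 2.76, 1.58 and 0.856 CPM in p53 het tumours 1 to 4, from 0.298 to 77.2 CPM (median 2.12) in the 6 R172H tumours, 0.312, 0.137 and 0.459 CPM in R245W tumours 1 to 3 and 1.18, 1.79, 0.561, 0.301 and 2.02 CPM in R270H tumours 1 to 5. In R172H 4 it reached 77.2 CPM (1935 counts), and the next value was 6.36 CPM in R172H 3, so the R172H mean of 14.8 ± 30.7 CPM (SD, n = 6) rests on 1 tumour (median 2.12 CPM). All 3 R245W values were below the 4 p53 het values.

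R172H 4 was not high in the other killing genes. It had 0.319 CPM of Gzma, 0.439 CPM of Prf1, 0.878 CPM of Nkg7 and 0.200 CPM of Cd3e. The neighbouring granzyme gene Gzmc was at 16.6 CPM there and at 0.0368 to 2.40 CPM in the other 17 tumours. Of the other genes in the cluster, Gzmd was at 0.399 and Gzme at 0.958 CPM there, both below R172H 3 (0.621 and 1.82 CPM). Gzmf and Mcpt8 had no count in R172H 4. The mast cell genes Cpa3, Mcpt4 and Cma1, looked up after the Gzmb values were seen, were at 7.06, 7.46 and 6.38 CPM in R172H 4. They were also at 9.82, 5.40 and 7.69 CPM in p53 het 1, where Gzmb was at 1.03 CPM, and their part in the Gzmb value was not tested.

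Gzma (granzyme A) was at 0.355, 0.184, 0.746 and 0.411 CPM in p53 het tumours 1 to 4, from 0.0993 to 2.06 CPM (median 0.316) in the 6 R172H tumours, 0, 0 and 0.292 CPM in R245W tumours 1 to 3 and 0.142, 0.872, 0.0374, 0.172 and 0.358 CPM in R270H tumours 1 to 5. R172H 3 was highest, and R245W 1 and 2 had no count. Prf1 (perforin) was at 0.631, 1.29, 0.922 and 0.753 CPM in p53 het tumours 1 to 4, from 0.439 to 1.71 CPM (median 0.84) in the 6 R172H tumours, 0.267, 0.728 and 1.21 CPM in R245W tumours 1 to 3 and 0.993, 1.36, 0.262, 0.431 and 0.761 CPM in R270H tumours 1 to 5. R245W 2 (0.728 CPM) was inside the range of the other genotypes. Nkg7, a granule protein of killer cells, was at 1.5, 2.58, 2.55 and 0.445 CPM in p53 het tumours 1 to 4, from 0.646 to 1.98 CPM (median 1.28) in the 6 R172H tumours, 0.401, 0 and 2.76 CPM in R245W tumours 1 to 3 and 1.89, 2.18, 0.224, 0.345 and 4.75 CPM in R270H tumours 1 to 5. R270H 5 was highest and R245W 2 had no count. Gzmk (granzyme K) ranged from 0.0747 to 0.941 CPM.

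Ifng, the cytokine interferon gamma, was near the limit of detection. It had no count in 8 of the 18 tumours and at most 0.339 CPM (R270H 2, 7 counts), and it was the only member that failed the filter on low counts. It entered no test with that filter.

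NK receptors were also scarce. Ncr1 (NKp46), a defining receptor of NK cells, was at 0.552, 0.0736, 0.307 and 0.65 CPM in p53 het tumours 1 to 4, from 0 to 1.13 CPM (median 0.346) in the 6 R172H tumours, 0, 0 and 0.125 CPM in R245W tumours 1 to 3 and 0.0945, 0.436, 0, 0 and 0.269 CPM in R270H tumours 1 to 5. It had no count in 5 tumours, and only R172H 3 exceeded 1 CPM. Klrb1c (NK1.1 in C57BL/6 mice) was at 0.237, 0.368, 1.23 and 0.24 CPM in p53 het tumours 1 to 4, from 0.248 to 0.388 CPM (median 0.314) in the 6 R172H tumours, 0.0891, 0.137 and 0.292 CPM in R245W tumours 1 to 3 and 0.425, 0.145, 0.561, 0.56 and 0.358 CPM in R270H tumours 1 to 5. The p53 het 3 value was highest, and R245W 1 was lowest.

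Klrd1 (CD94), the partner chain of the NKG2 receptors (ENSMUSG00000030165.16, chr6:129591782-129598775), was at 0.552, 0.847, 2.24 and 0.753 CPM in p53 het tumours 1 to 4, from 0.211 to 1.32 CPM (median 0.492) in the 6 R172H tumours, 0.178, 0.0455 and 0.25 CPM in R245W tumours 1 to 3 and 0.662, 1.89, 0.149, 0.301 and 1.61 CPM in R270H tumours 1 to 5. All 3 R245W values (4, 1 and 6 counts) lay below the 4 p53 het values. Among R172H tumours only R172H 6 (0.211 CPM) was as low. Klrk1 (NKG2D, a receptor for stress ligands) was at 2.21, 1.73, 2.24 and 1.81 CPM in p53 het tumours 1 to 4, from 0.546 to 3.84 CPM (median 0.881) in the 6 R172H tumours, 0.134, 0.0911 and 1.34 CPM in R245W tumours 1 to 3 and 1.8, 3.34, 0.523, 0.948 and 2.55 CPM in R270H tumours 1 to 5. R245W 1 and 2 were lowest for Klrk1. Il2rb, the shared beta chain of the interleukin-2 and interleukin-15 receptors, ranged from 0.822 to 8.61 CPM.

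The transcription factors of killer differentiation, Eomes and Tbx21, ranged from 0 to 1.88 CPM and from 0.0374 to 0.896 CPM. R270H 5 was highest for both, and R245W 2 had no count of Eomes and 1 count of Tbx21.

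Over libraries, R270H 5 was highest for 11 members and R172H 3 for 7. R270H 3 was lowest for 11 and R245W 1 for 5, besides the 22 of R245W 2. The median log2 CPM of the members was -2.33 in R245W 2, -1.13 in R245W 1 and 0.32 in R245W 3, so the 3 R245W tumours differed widely among themselves. In R270H it ran from -0.93 to 1.25. Genes of all leukocytes (Ptprc, Cd53, Laptm5 and Coro1a) summed to 265 to 456 CPM in R245W and 278 to 458 CPM in p53 het tumours, ranges that overlap almost fully.

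Genotypes were compared in 1 edgeR quasi-likelihood fit over the 18 tumours with 20616 genes, 34 of them members. A log2 fold is given with its standard error, a gene was called at an adjusted p under 0.05, and p-values measure the spread between tumours. The 3 contrasts against p53 het share those 4 libraries.

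For R172H against p53 het no member was called, against 0.0776% of all genes. At an unadjusted p under 0.05 there was 1 member, and 12.3% of all genes. Neither DESeq2 nor limma voom called a member. Of the 34 members 28 had a log2 fold below 0 (82.4%, against 51.7% of all genes), and their median was -0.52 (all genes -0.02), running from -0.64 (without p53 het 4) to -0.30 (without p53 het 3) with 1 tumour left out. The lowest p-values belonged to Gzmb (3.02 ± 1.24, adjusted p = 0.344), Cd8b1 (-1.07 ± 0.52, adjusted p = 0.419) and Cd28 (-1.31 ± 0.68, adjusted p = 0.442). Without R172H 4 the log2 fold of Gzmb was 0.40. Against p53 het 1 and 2 alone, whose titles match, the median was -0.56 and no member was called. No member had groups free of overlap (2.15% of all genes did).

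For R245W against p53 het no member was called in edgeR (0.0728% of all genes were). At an unadjusted p under 0.05 there were 8 members of 34, and 12.5% of all genes. DESeq2 called 2, Cd8b1 (adjusted p = 0.00312) and Klrd1 (adjusted p = 0.0466), beside 1.79% of all genes, and limma voom none. Log2 folds were below 0 for 30 of 34 members (88.2%, against 52.7% of all genes), with a median of -1.12 (all genes -0.04). That T and NK genes lean low in R245W was known when the members were chosen and is no independent support.

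The members of lowest p were Cd8b1 (-2.99 ± 0.72, adjusted p = 0.16), Klrd1 (-2.84 ± 0.86, adjusted p = 0.213) and Klrb1c (-1.63 ± 0.65, adjusted p = 0.32), all by edgeR. With 1 tumour left out the log2 fold ran from -4.02 (without R245W 3) to -2.43 (without p53 het 2) for Cd8b1. That of Klrd1 ran from -3.31 to -2.24, and that of Klrb1c from -2.21 (without R245W 3) to -0.79 (without p53 het 3). Values of all R245W tumours lay below all p53 het values for 5 members, Cd8b1, Klrd1, Klrk1, Cd3g and Gzmb, and none lay above (9.11% of all genes did not overlap in either direction). The 4 members with a log2 fold above 0 were Cd5, Havcr2, Foxp3 and Zap70. The size of the median turned on single tumours. It was -0.75 without R245W 2, with 2 members at an unadjusted p under 0.05, beside 2513 of 21468 genes. Without R245W 3 it was -2.27, with 21 such members, beside 2009 of 21351 genes. That last fit rests on R245W 1 and 2 alone. Against p53 het 1 and 2 alone the median was -1.15, with no member called. Beside these, 11 of 13 B and plasma cell genes had a log2 fold below 0 (median -0.54), 10 of 12 macrophage genes (median -0.35) and 7 of 9 dendritic cell genes (median -0.58). The same held for 8 of 8 skeletal muscle genes (median -1.47) but for 0 of 9 neutrophil genes (median 1.43), and none of all these was called. The part of these cell types in the member values was not tested.

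For R270H against p53 het no member was called, and no gene at all (0%). At an unadjusted p under 0.05 there was no member, against 11.5% of all genes, and neither DESeq2 nor limma voom called one. The log2 fold was below 0 for 28 of 34 (all genes 51.3%), with a median of -0.37, which was -0.68 without R270H 5 and -0.11 without R270H 3. Lowest in p were Cd8b1 (-1.08 ± 0.55, adjusted p = 0.468), Lag3 (-0.92 ± 0.59, adjusted p = 0.596) and Cd4 (-1.14 ± 0.76, adjusted p = 0.606). Without p53 het 4 the log2 fold of Lag3 was 0.01. Against p53 het 3 and 4 alone the median was -0.22 and no member was called. No member was free of overlap (3.50% of all genes were).

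**Figure D3:**
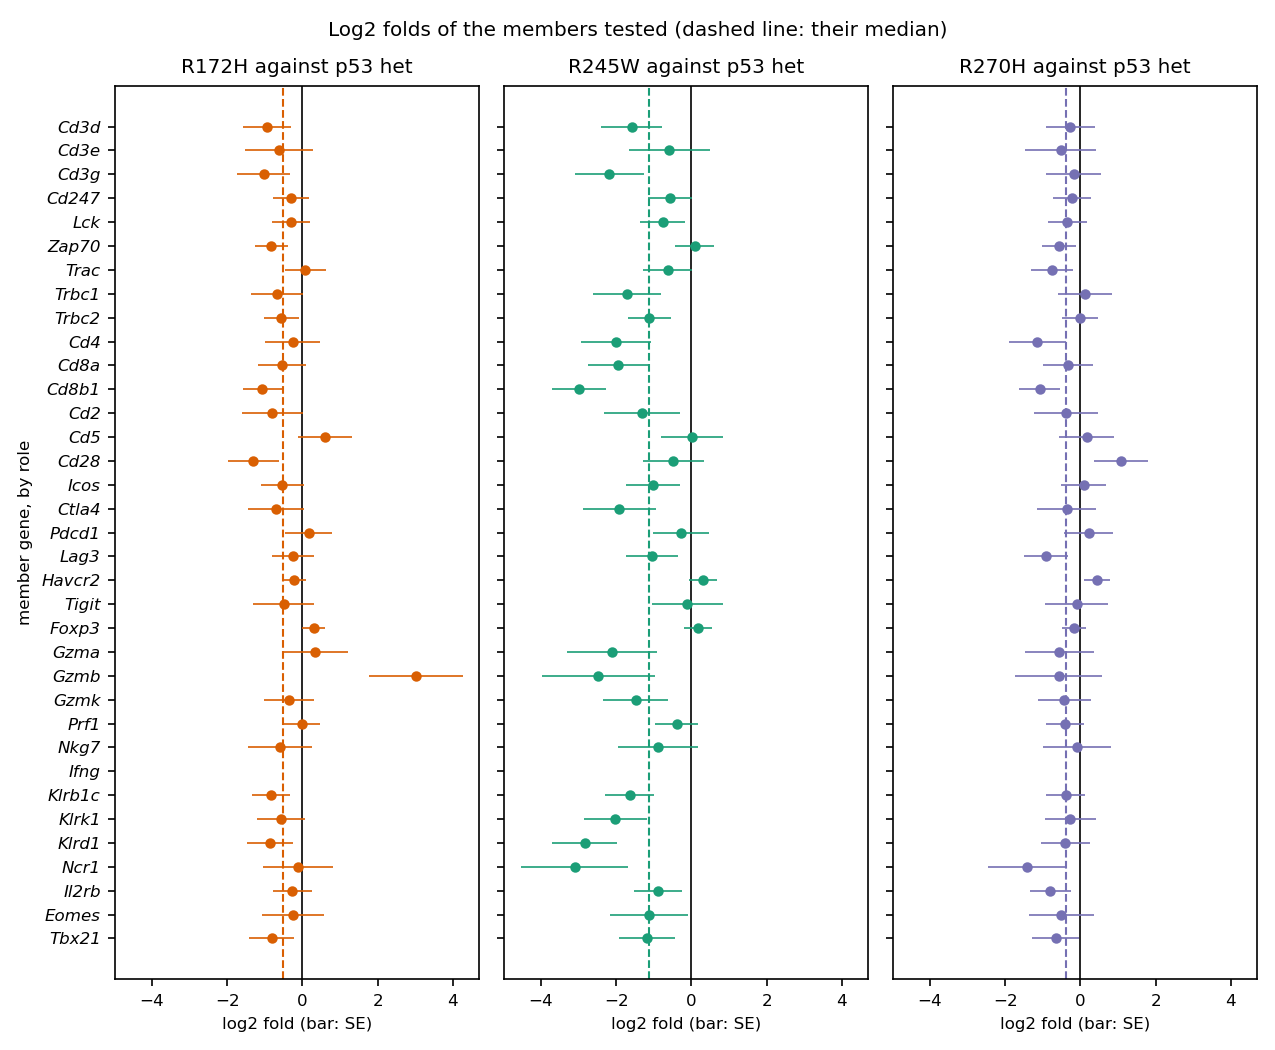
Log2 folds (points, with standard errors) of the 34 members tested, by role from top to bottom, for each mutant against p53 het; the dashed lines are the medians of -0.52, -1.12 and -0.37. Most points lie left of 0 in all 3 panels, which share the p53 het tumours, and the R245W points reach furthest left.

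Between mutants, 1 member was called. For R270H against R172H Cd28 was higher in R270H, with a log2 fold of 2.39 ± 0.66 and an adjusted p of 0.0443 in edgeR (DESeq2 0.00496, limma voom 0.0158). Of all genes 5.28% were called in this contrast (9.55% by DESeq2, 11.1% by limma voom), which is more than the share of members (1 of 34). Cd28 was also the 1 member whose groups did not overlap (6.72% of all genes did not). The call is close to the threshold. It was lost in 10 of the 18 fits that left out 1 tumour (every R172H tumour, and R270H 1, 3, 4 or 5), where log2 folds stayed at 2.13 to 2.55 and the highest adjusted p was 0.1005 (without R270H 1). With title kind as a covariate the log2 fold was 1.56 (adjusted p = 0.739), and without the low-count filter the adjusted p was 0.0526. R270H and R172H titles are of different kinds throughout. A batch that follows the serial number can be told apart from genotype only through p53 het. A batch that follows the code of the R270H titles cannot be told apart from genotype at all, and the covariate does not cover it.

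Other markers moved in that contrast too. Neutrophil genes had a log2 fold above 0 in 9 of 9, with 3 called up and a median of 4.43. They summed to 15.9 to 1273 CPM in R270H and 2.83 to 46.3 CPM in R172H tumours. Of the macrophage genes 7 of 12 were above 0 (median 0.15) and 2 were called down, and 1 of 4 genes of all leukocytes, Cd53, was called up. B and plasma cell genes summed to 11.1 to 222 CPM in R270H and 27.4 to 138 CPM in R172H tumours. Of these 13 genes 11 had a log2 fold above 0, the direction of Cd28, with a median of 0.74. By edgeR 3 of the 13 were at an unadjusted p under 0.05, as were 23.2% of all genes, and 0 were called (5.28% of all genes). The lowest p was that of Mzb1, a plasma cell gene (2.15 ± 0.73, adjusted p = 0.0912 by edgeR). R270H 3, with 33.5 CPM of Cd28, had the lowest neutrophil sum of its group, 15.9 CPM. The part of these cells in the Cd28 difference was not tested.

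The other members were centred near 0 in R270H against R172H: 20 of 34 had a log2 fold above 0, with a median of 0.13 (all genes -0.02). Without R270H 5 the direction turned, with 13 of 34 above 0 and a median of -0.22, while without R270H 3 the median was 0.36. At an unadjusted p under 0.05 there were 3 members, and 23.2% of all genes. Beside Cd28 these were Gzmb (-3.60 ± 1.17, adjusted p = 0.078 by edgeR, 0.00437 by DESeq2) and Havcr2 (0.67 ± 0.30, adjusted p = 0.189). Without R172H 4 the Gzmb log2 fold was -0.99.

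For R245W against R172H no member was called by edgeR (0.155% of all genes were) or limma voom, and 1, Gzmb, by DESeq2 (1.46% of all genes). At an unadjusted p under 0.05 there were 5 members, and 10.8% of all genes. The log2 fold was below 0 in 29 of 34 (all genes 50.3%), with a median of -0.63. Gzmb (-5.49 ± 1.65, adjusted p = 0.23 by edgeR, 5.49e-04 by DESeq2), Cd8b1 (-1.93 ± 0.66, adjusted p = 0.303) and Klrd1 (-1.98 ± 0.82, adjusted p = 0.396) had the lowest p. Without R172H 4 the Gzmb log2 fold was -2.88. Without R245W 2 the median was -0.38, and without R245W 3 it was -1.60. Cd8b1 was the 1 member without overlap, lower in all 3 R245W tumours (5.24% of all genes did not overlap).

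For R245W against R270H no member was called, whether by edgeR (1.24% of all genes), DESeq2 or limma voom. At an unadjusted p under 0.05 there were 4 members, and 18.4% of all genes. The log2 fold was below 0 in 30 of 34 (all genes 51.5%), with a median of -0.90, which was -0.38 without R245W 2 and -1.83 without R245W 3. Klrd1 (-2.44 ± 0.84, adjusted p = 0.137), Cd8b1 (-1.91 ± 0.68, adjusted p = 0.147) and Cd3g (-2.0 ± 0.88, adjusted p = 0.235) had the lowest p. No member was free of overlap (12.9% of all genes were). R245W and R270H titles differ in kind throughout, and with title kind as a covariate the median was -0.97 with no member called. In the test for any difference between the 4 genotypes 0 members were called by edgeR (2.86% of all genes). Unadjusted, 4 of the 34 had a p under 0.05, and so did 4550 of all 20616 genes. Gzmb (adjusted p = 0.0603) and Cd8b1 (adjusted p = 0.0804) came closest. DESeq2 called 3 there (Gzmb, Cd8b1 and Cd28), a smaller share than its 10.7% of all genes, and limma voom none.

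A companion list of 60 other T and NK cell genes, of which 58 matched a symbol and 50 were tested, gave 1 call in the 6 contrasts, in one where 1.24% of all genes were called. Tnfrsf9 (4-1BB, a costimulatory receptor) was lower in R245W than in R270H tumours. Its log2 fold was -3.02 ± 0.63 (adjusted p = 0.0299 by edgeR). For R245W against R172H, whose titles all have a serial number, it was -3.03 ± 0.63 (adjusted p = 0.0688 by edgeR). For R245W against p53 het it was -2.81 ± 0.64 (adjusted p = 0.160 by edgeR), and neither of these was called. Tnfrsf9 was not looked up under the other settings. It was at 5.99, 14.2, 19.7 and 16.5 CPM in p53 het tumours 1 to 4, from 6.88 to 36.8 CPM (median 15.2) in the 6 R172H tumours, 1.47, 3.28 and 1.59 CPM in R245W tumours 1 to 3 and 23.1, 8.09, 29.4, 15.5 and 8.38 CPM in R270H tumours 1 to 5. All 3 R245W tumours lay below all other tumours, R245W 3 included, which was high in Cd3e. The cell line, which holds no stroma, had 17.2 CPM in its control and 15.7 CPM in its siRNA library, also above all 3 R245W tumours and within the range of the other tumours. The part of tumour cells in the Tnfrsf9 difference was not tested. R245W and R270H titles are of different kinds throughout. A batch that follows the serial number can be told apart from genotype there only through p53 het, and a batch that follows the code of the R270H titles not at all. With title kind as a covariate, 8 of all genes were called for R245W against R270H, against 255 without it. Tnfrsf9 was not looked up in that fit. Of the 50 genes 42 had a log2 fold below 0 for R245W against p53 het (84%, all genes 52.7%, median -0.83), 27 for R172H against p53 het (54%, all genes 51.7%, median -0.18) and 36 for R270H against p53 het (72%, all genes 51.3%, median -0.30).

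Of 30 ligands of these receptors and chemokines or cytokines that act on T and NK cells, 26 were tested and none was called in any of the 6 contrasts by edgeR. For R245W against p53 het 8 of the 26 were at an unadjusted p under 0.05 (12.5% of all genes), the lowest being Ccl19, a T cell attracting chemokine (-4.81 ± 1.23, adjusted p = 0.172), and 18 had a log2 fold below 0 (69.2%, all genes 52.7%, median -0.57). For R172H and R270H against p53 het 4 and 2 genes were at an unadjusted p under 0.05 (12.3% and 11.5% of all genes), with medians of 0.16 and 0.02.

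A set of 10 planned pairs of single genes were correlated over the 18 tumours on log2 CPM, with two-sided permutation tests adjusted over the 10 pairs. Cd3e went closely with Cd8a: r was 0.81 (permutation p = 1e-05, the smallest that 100000 resamples can give, adjusted 0.0001) and rho 0.83 (p = 6e-05, adjusted 0.0006). The relation held without the 2 farthest tumours, R245W 1 and 2 (r = 0.68, permutation p = 0.00353, adjusted 0.0353). Within titles with a serial number (n = 11) r was 0.83 (permutation p = 0.00046, adjusted 0.0046). Within those without (n = 7) it was 0.79 (permutation p = 0.0415, adjusted 0.0853) and did not pass.

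Cd3e with Pdcd1 gave r = 0.64 (permutation p = 0.00428, adjusted 0.0214) and rho = 0.55 (permutation p = 0.0208, adjusted 0.0654). For Cd3e with Cd4 r was 0.62 (permutation p = 0.00649, adjusted 0.0216) and rho 0.44 (permutation p = 0.0705, adjusted 0.101). Without R245W 1 and 2 these r were 0.49 and 0.51, both with an adjusted permutation p of 0.107, so the calls rest on those tumours, while most of the size of r remained without them. Within the 2 kinds of title r was 0.62 and 0.75 for Pdcd1 and 0.53 and 0.85 for Cd4, all with an adjusted permutation p above the threshold (0.0853 to 0.157).

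Cd3e with Foxp3 gave r = 0.57 (permutation p = 0.0125, adjusted 0.025) and rho = 0.54 (permutation p = 0.0216, adjusted 0.0654), and r = 0.62 without R245W 1 and 2. Within the kinds of title it was 0.53 and 0.85. Cd3e with Ncr1 gave r = 0.53 (permutation p = 0.0240, adjusted 0.0401) and rho = 0.46 (permutation p = 0.0611, adjusted 0.101), falling to r = 0.34 without the 2 farthest. It was 0.54 and 0.53 within the kinds of title. Cd4 with the macrophage gene Csf1r gave r = 0.59 (permutation p = 0.00965, adjusted 0.0241) and rho = 0.42 (permutation p = 0.0805, adjusted 0.101). Without R245W 2 and R270H 4 it was 0.23, so it rests on them. Within the kinds of title it was 0.64 and 0.59.

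The other 4 pairs did not pass. Cd3e with Gzmb gave r = 0.25 (permutation p = 0.311, adjusted 0.346) and rho = 0.46 (permutation p = 0.0563, adjusted 0.101). Cd3e with Havcr2 gave r = 0.16 (permutation p = 0.534) and rho = 0.22 (permutation p = 0.384), both unchanged by adjustment. Havcr2 with Csf1r gave r = 0.26 (permutation p = 0.305, adjusted 0.346) and rho = 0.37 (permutation p = 0.124, adjusted 0.138). Without the 2 farthest tumours r was -0.05 for Gzmb, 0.19 for Havcr2 with Cd3e and 0.35 for Havcr2 with Csf1r. By rho on these values only Cd3e with Cd8a passed the adjustment.

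On deviations from each genotype's mean 7 of the 10 pairs passed by r. There Havcr2 with Csf1r passed (r = 0.52, adjusted permutation p = 0.0338) and Cd3e with Ncr1 did not (r = 0.43, adjusted permutation p = 0.0943). By rho Cd3e passed there with Foxp3, Pdcd1 and Gzmb as well (adjusted permutation p = 0.00955, 0.0292 and 0.0464), and Csf1r with Cd4 and Havcr2 (0.0292 and 0.0454). These tests shuffled the deviations freely over all tumours although the genotype means had been removed, which makes their p-values too small. Passes near the threshold, that of Havcr2 with Csf1r among them, may therefore not hold.

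**Figure D4:**
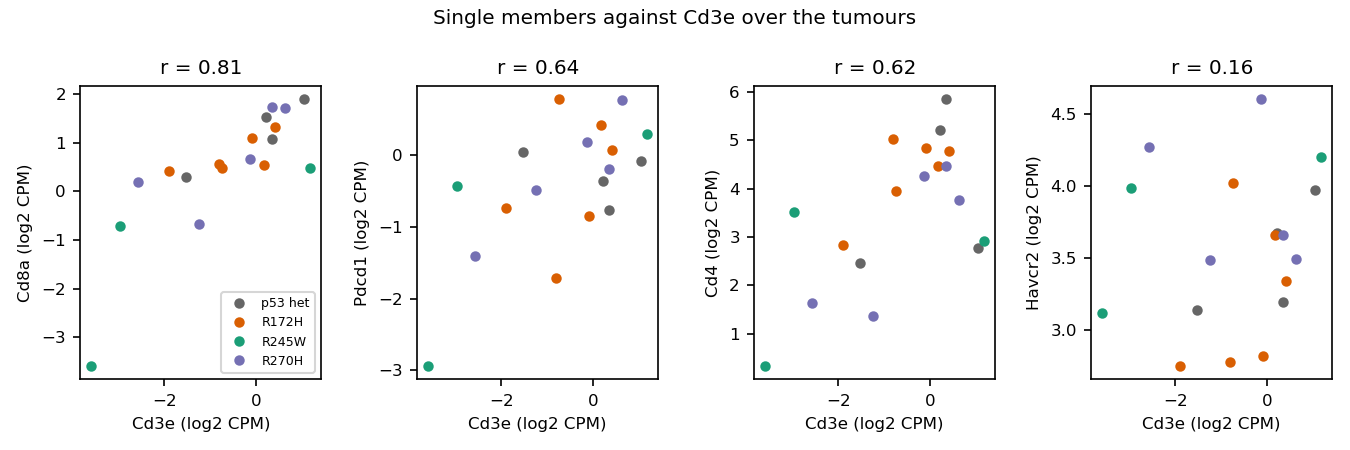
Each point is a tumour, coloured by genotype, with log2 CPM of Cd3e on the x axis and of Cd8a, Pdcd1, Cd4 or Havcr2 on the y axis. Cd8a follows Cd3e closely (r = 0.81) and Havcr2 does not (r = 0.16), while Pdcd1 (r = 0.64) and Cd4 (r = 0.62) lie between.

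The cell line, grown without the cells of a tumour's stroma, served as a reference for tumour cell RNA. Of the 35 members 10 had no count in either library, among them Cd3e, Cd3g, Cd8b1 and Ncr1, which at these depths allows up to 0.0468 CPM in the control and 0.0409 CPM in the siRNA library. In all, 21 members were at or under 3 counts in each library, and 22 were below every tumour in both. The 35 members summed to 18.6 and 19.1 CPM. Ptprc (CD45), on nearly all leukocytes, was at 0.718 and 0.409 CPM, against 83.4 to 272 CPM in the tumours.

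The remaining 14 members were above 3 counts in at least 1 line library: Cd247, Cd28, Cd4, Cd8a, Eomes, Foxp3, Gzmb, Havcr2, Il2rb, Lag3, Lck, Tigit, Trac and Zap70. Gzmb was at 7.32 CPM in the control (exact Poisson 95% interval 6.67 to 8.01) and 6.42 CPM with siRNA (5.85 to 7.03), above every tumour but R172H 4. Of the neighbours in its cluster, Gzmc was at 4.35 and 3.84 CPM and Gzme at 3.26 and 3.8 CPM in control and siRNA. Mcpt8, chosen after its values were seen, was at 7.97 and 8.51 CPM. Gzmd was at 0.109 and 0.164 CPM, and Gzmf had no count in the line. Tigit was at 2.31 CPM (1.95 to 2.71) and 1.87 CPM (1.57 to 2.21), above all 18 tumours, whose highest was 0.630 CPM. Havcr2 was at 4.14 and 6.0 CPM, below every tumour.

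Lck at 1.64 and 1.57 CPM and Foxp3 at 1.36 and 1.09 CPM lay inside the tumour ranges, although Cd3d, Cd3e and Cd3g were at or under 3 counts in the line. Foxp3 shares exon bases as given above. Cd4 (0.172 and 0.0818 CPM) and Cd28 (0.265 and 0.30 CPM) were below every tumour. Each condition has 1 library, so no difference between control and siRNA was tested. The intervals of control and siRNA overlapped for Gzmb, Tigit, Lck and Foxp3. Those of Havcr2 did not (3.65 to 4.66 CPM in the control, 5.45 to 6.59 CPM with siRNA). They cover counting error only.

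**Figure D5:**
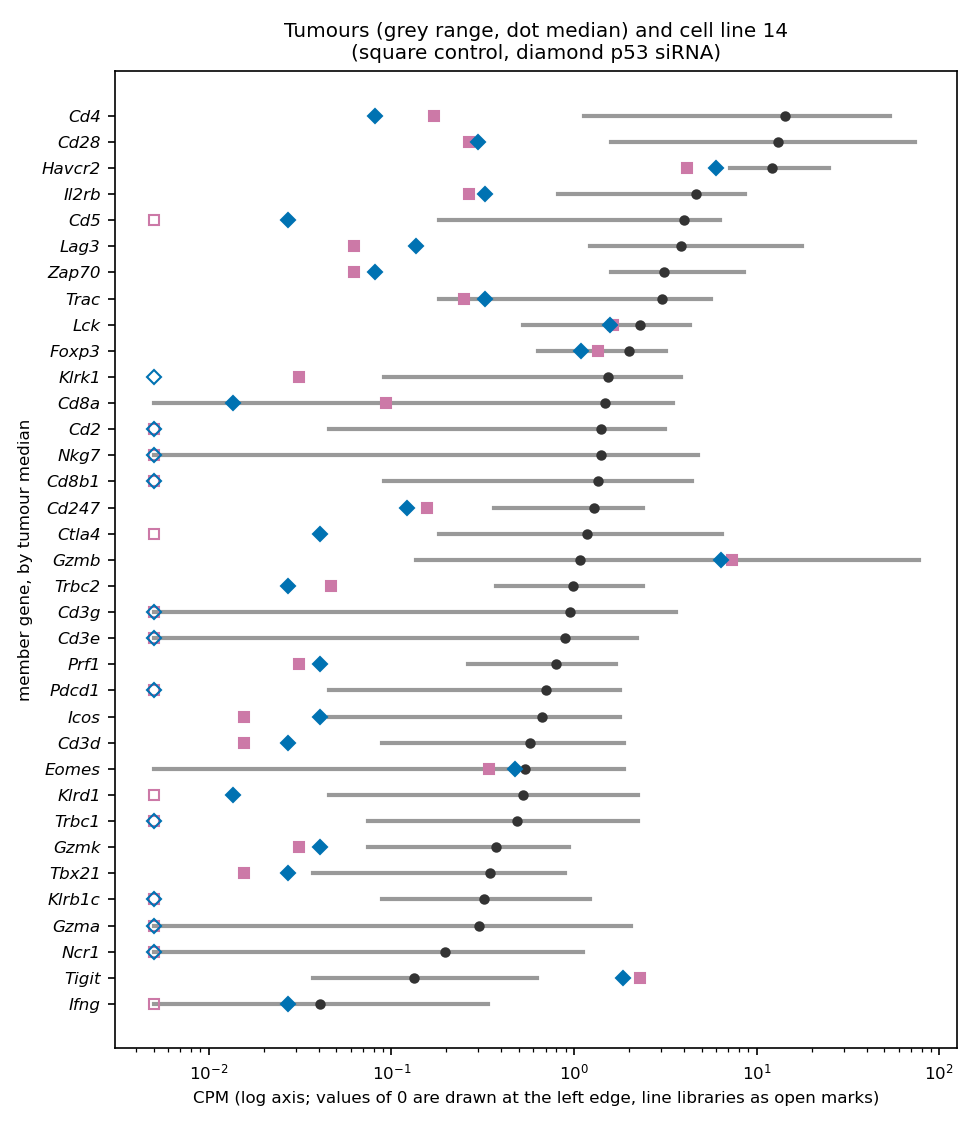
CPM of each member on a log axis: the grey bar is the range over 18 tumours, the dot its median, the square the line's control and the diamond its p53 siRNA library (values of 0 at the left edge, open marks for the line). Most marks of the line lie left of the grey bars, Tigit lies right of its bar, and Gzmb, Lck and Foxp3 lie within theirs.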

How the data were processed

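Total RNA was sequenced from 18 tumours and 2 libraries of a cell line. The authors deposited raw counts, whole numbers of reads per gene and library, per the file headers and values, and per the submitters' processing notes reads were aligned to GRCm38 with STAR 2.6.0b and compared with DESeq2 (version not given). The counting program, annotation, strand setting and batches are not given in the sources used here. Every column matched 1 sample, and 49326 of 49585 IDs matched a symbol. Gene positions come from GENCODE M21 and promoters from RefSeq (GRCm38.p6).

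The tests on tumours ran in edgeR 4.0.16 (R 4.3.3): filterByExpr by genotype (minimum count 10, minimum total 15; 20616 genes), TMM scaling, and a quasi-likelihood fit with 14 residual degrees of freedom, tested on simulated data. p-values were adjusted by Benjamini-Hochberg over all genes within each contrast, with a threshold of 0.05. Log2 CPM used a prior count of 2. Alternatives were DESeq2 1.42.0, its size factors, limma 3.58.1 voom with quality weights, no filter, fits of only the groups compared, title kind as a covariate or matched titles, and each tumour left out. Correlations used Python 3.11.15 and SciPy 1.17.1. Intervals are exact Poisson intervals at 95%, and intervals and floors (3 counts) cover counting error only. No label says that tumours came from separate mice, so p-values measure only the spread between these samples.

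Values are given for 16 key members, for members that passed and for the 3 of lowest unadjusted p in each contrast, and other members by range; Cd3g, Zap70, Klrk1 and the Gzmb neighbours were added after their values were seen. The members and lists were chosen with earlier results of these data known. Of the 10 planned gene pairs 1 entered the adjustment over pairs and is not reported here.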

Additional observations from a re-analysis of the deposited data

Results flagged for a closer look

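Values of the 16 key members were looked at for a tumour far from the rest of its genotype, in groups of 4 to 6 tumours on log2 CPM (48 group values); chance singles out about 1 in 20 groups. Both cases found were of Lag3, the checkpoint receptor for MHC class II. In p53 het 4 Lag3 was at 17.8 CPM, against 3.02 to 3.82 CPM in the other 3 p53 het tumours. In R270H 4 it was at 1.29 CPM, against 3.21 to 5.42 CPM in the other 4 R270H tumours.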

How the results depend on the processing

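No paired analysis was possible because the labels give no shared replicate numbers and those used here only name samples. Members called by DESeq2 were 2 for R245W against p53 het, 1 for R245W against R172H, 2 for R270H against R172H and 3 for any difference. For R270H against R172H 0 members were called without the low-count filter and 0 with title kind as a covariate. Leaving out 1 tumour gave 0 to 1 called members for R270H against R172H and 0 to 1 for any difference (1 without R172H 2 or R245W 1). The Lag3 log2 fold for R270H against p53 het was 0.012 without p53 het 4 (range over tumours left out -1.14 to 0.012). The other log2 folds named for single members kept their sign with any 1 tumour left out, but their size moved: for Cd8b1 from -1.28 to -0.50 (R172H against p53 het), -1.41 to -0.52 (R270H against p53 het), -2.95 to -1.5 (R245W against R172H) and -2.93 to -1.49 (R245W against R270H). Of the 10 gene pairs 6 passed on log2 CPM, 1 on CPM without a log, 1 among titles with a serial number, 0 among those without, and 2 without the 2 farthest tumours. The correlation of Cd3e with Gzmb was -0.21 on CPM without a log and -0.048 without the 2 farthest tumours, and that of Cd3e with Havcr2 was -0.10 among titles without a serial number. The cause of these differences was not tested, beyond the smaller number of samples where tumours were left out. At these depths members at or under 3 counts, 69 of 630 values, carry little information.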
